A study of Mus musculus with 24 samples.

Results

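The microRNAs miR-199 and miR-214 were followed across serum exosomes, exosomes released by primary hepatocytes, the hepatocytes themselves and whole liver of the mouse. The members were given by name: 4 of the 1915 mature miRNAs in the count table (miR-199a-3p, miR-199b-3p, miR-199a-5p and miR-214-3p) and 4 of the 1186 hairpins (mir-199a-1, mir-199a-2, mir-199b and mir-214). The 24 libraries were made for 4 materials under 3 treatments, once each for the Ion Torrent PGM and Proton instruments, and had been combined by the authors into 12 columns, 1 per condition. For serum exosomes and liver the treatments were none (control), 500 mg/kg acetaminophen, and 500 mg/kg acetaminophen with 100 µg/kg granulocyte colony-stimulating factor (G-CSF). For cultured primary hepatocytes and their exosomes they were none, 20 mM acetaminophen, and 20 mM acetaminophen with 1 µg/ml G-CSF. The sources used here do not give the strain, the age, the duration of treatment or how many mice or cultures stood behind a column. No replicate remained within a condition, so intervals given below are 95% intervals that cover counting error only.

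A miRNA is cut from a hairpin precursor, whose 5′ and 3′ arms give the mature 5p and 3p forms, and it lowers the output of messenger RNAs that pair with its seed near the 5′ end. In the liver, miR-199 and miR-214 are best known from hepatic stellate cells, the vitamin A-storing mesenchymal cells that turn into matrix-producing myofibroblasts after injury, and both have been described as raised in fibrotic liver. Acetaminophen overdose kills hepatocytes around the central veins, and G-CSF drives the making and release of neutrophils. The deposited tables hold miRNAs only, so no stellate cell was identified in these samples and the cell of origin of the counts was not measured.

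The mature sequences are shown because they decide which counts can be told apart. All 4 mature members had an entry in the RefSeq table (GRCm38.p6), and miR-214-5p is added as the opposite arm. Capitals mark the seed, bases 2 to 8.
mmu-miR-199a-3p: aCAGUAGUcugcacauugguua
mmu-miR-199b-3p: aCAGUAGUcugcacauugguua
mmu-miR-199a-5p: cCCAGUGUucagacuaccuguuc
mmu-miR-214-3p: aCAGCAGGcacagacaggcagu
mmu-miR-214-5p: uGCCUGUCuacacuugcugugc
The 3p forms of miR-199a and miR-199b were identical over all 22 bases, and their deposited counts were equal in all 12 columns. The seed of miR-214-3p differed from that of miR-199a-3p at 2 of 7 bases and was shared with 1 other mature miRNA of the table, miR-761.

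The hairpins are shown with both arms in capitals, since reads from a shared arm could come from any of 3 genes.
Mir199a-1: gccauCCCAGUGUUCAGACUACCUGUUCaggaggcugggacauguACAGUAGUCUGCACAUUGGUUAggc
Mir199a-2: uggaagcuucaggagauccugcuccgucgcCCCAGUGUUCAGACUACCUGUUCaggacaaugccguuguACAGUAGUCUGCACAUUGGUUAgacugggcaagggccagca
Mir199b: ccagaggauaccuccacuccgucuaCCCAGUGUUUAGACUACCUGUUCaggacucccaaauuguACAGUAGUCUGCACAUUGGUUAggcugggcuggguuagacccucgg
Mir214: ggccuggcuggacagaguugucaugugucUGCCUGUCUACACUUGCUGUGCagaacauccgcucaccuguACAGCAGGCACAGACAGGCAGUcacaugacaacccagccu
Both arms of miR-199a were found unaltered in Mir199a-1 and Mir199a-2. The 5p arm of Mir199b differed from miR-199a-5p by a single substitution, C10U, counted from the 5′ end of miR-199a-5p. Any 2 of the 3 mir-199 hairpins shared a run of 27 or 28 bases, against 7 bases with mir-214. The 3 mir-199 hairpins are therefore reported mainly as their sum, and a value for a single one of them is uncertain: in no column did they differ by more than 4 counts.

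In GRCm38.p6, Mir199a-2 lies at chr1:162217814-162217923 and Mir214 at chr1:162223368-162223477, both on the plus strand and 5444 bases apart. The GENCODE annotation places both in an exon of the noncoding RNA gene Dnm3os, which runs antisense within an intron of Dnm3, a dynamin gene. Mir199b lies at chr2:32318460-32318569 on the plus strand, antisense to an intron of Dnm1. Mir199a-1 lies at chr9:21496495-21496564 on the minus strand, antisense to an intron of Dnm2. Of the 3 genes that can give miR-199a-3p or its identical copy, 1 thus lies in the same annotated gene as mir-214.

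Depth differed widely between columns, and 1 liver column stood apart. Mature totals were 19695 to 49330 counts in liver, 4450 to 26741 in hepatocytes and 47 to 6515 in the exosome columns. Hairpin totals were 26.5 times the mature total in control liver and 25.1 times in acetaminophen plus G-CSF liver, but 5.65 times in acetaminophen liver. A list of hepatocyte miRNAs led by miR-122 took 15.9% to 43.2% of the mature counts in liver and 16.8% to 32.3% in hepatocytes, but at most 2.13% in the 3 hepatocyte exosome columns, where 1 or 0 of its 7 members had a count.

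The member hairpins took larger shares in liver than in cultured hepatocytes. The hairpin mir-214 had 5909 counts in control liver, 229 in acetaminophen liver and 3705 in acetaminophen plus G-CSF liver, which were 0.452%, 0.206% and 0.338% of the column totals. It ranked 56 of 899 detected hairpins in control liver, 90 of 551 in acetaminophen liver and 71 of 818 with G-CSF. In hepatocytes the same hairpin had 26, 83 and 37 counts in the same order, or 0.00310%, 0.0462% and 0.0266%. Every liver share was above every hepatocyte share, the lowest liver share being 4.46 times the highest hepatocyte share.

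The 3 mir-199 hairpins were also higher in every liver column than in every hepatocyte column, but their order within liver differed from that of mir-214. Together they had 2538, 249.6 and 1840 counts in the 3 liver columns, or 0.194%, 0.224% and 0.168%, and 20.9, 46.8 and 19.8 counts in the hepatocyte columns, or 0.00249%, 0.0260% and 0.0142%. The lowest liver share was 6.45 times the highest hepatocyte share. The single hairpins had 846.0, 846.0 and 845.9 counts in control liver, 83, 83 and 83.6 in acetaminophen liver, and 613.0, 614.0 and 613.3 with G-CSF, for mir-199a-1, mir-199a-2 and mir-199b.

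**Figure D1:**
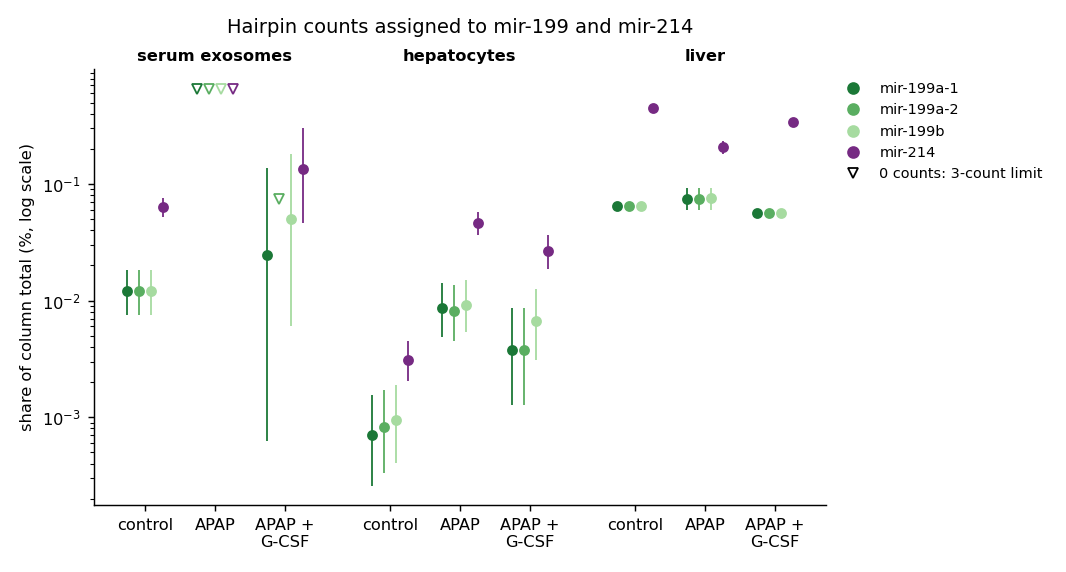
Share of the hairpin column total (%, log scale) of mir-199a-1, mir-199a-2, mir-199b and mir-214 in 9 columns of serum exosomes, hepatocytes and liver; bars are exact 95% intervals of counting error and open triangles mark the 3-count limit where the count was 0. All liver points lie above all hepatocyte points, and mir-214 drops from 0.452% to 0.206% of the total between control and acetaminophen liver while mir-199 does not; the 2 treated serum columns carry conflicting labels.

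Among mature forms, miR-214-3p led in control liver and with G-CSF. It had 119, 25 and 85 counts in the control, acetaminophen and acetaminophen plus G-CSF liver columns, or 0.241%, 0.127% and 0.195%, and 0 counts in each hepatocyte column. A count of 3, the floor set here for a 0, would have been 0.0112%, 0.0563% and 0.0674% of those hepatocyte columns. A 0 there does not show that miR-214-3p was absent. The arm miR-199a-3p and its copy miR-199b-3p each had 19.5, 24.5 and 14.5 counts in liver and 0 in hepatocytes. The arm miR-199a-5p had 13, 5.5 and 16 counts in liver and 0, 1.5 and 0 in hepatocytes, and miR-199b-5p had 12, 4.5 and 15 in liver. The opposite arm miR-214-5p had 2, 1 and 2 counts in liver, so miR-214 was almost wholly counted as its 3p arm.

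**Figure D2:**
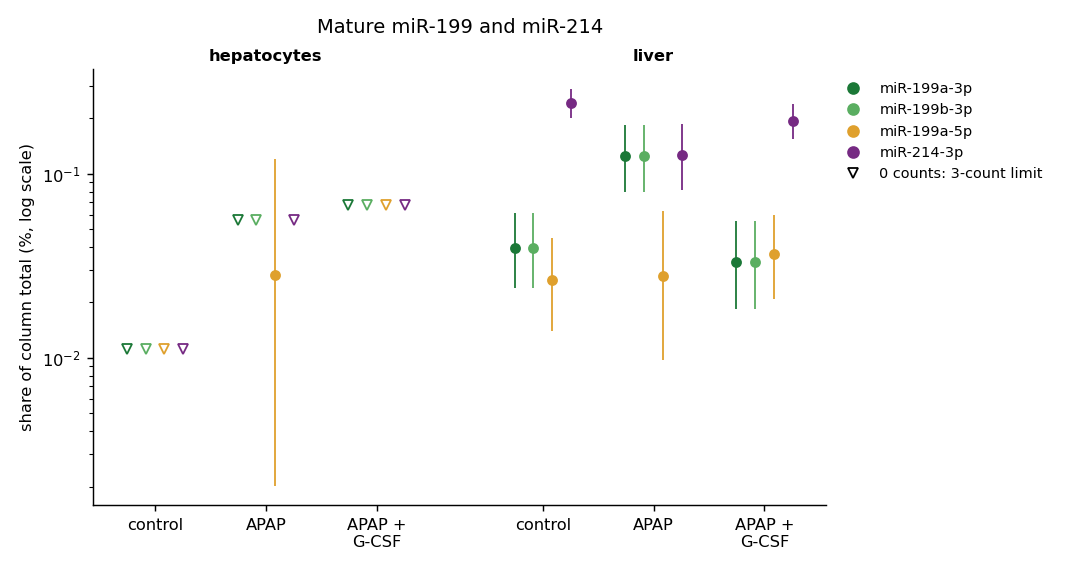
Share of the mature column total (%, log scale) of the 4 mature members in the 3 hepatocyte and 3 liver columns; bars are exact 95% intervals of counting error and open triangles mark the 3-count limit where the count was 0. miR-214-3p and the 3p arm of miR-199 have no count in any hepatocyte column. In acetaminophen liver miR-214-3p sits at 0.127%, and the identical copies miR-199a-3p and miR-199b-3p sit at 0.124% each. Summed, these copies took 0.249% of that column, above miR-214-3p.

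Liver was compared with hepatocytes in edgeR's quasi-likelihood test, with the 3 treatments serving as the samples of a material. Hairpin mir-199a-2 was 11.0-fold higher in liver (log2 3.46 ± 0.93 SE, Benjamini-Hochberg adjusted p = 0.0476), and mir-199a-1 was 10.7-fold higher (log2 3.42 ± 0.95, adjusted p = 0.0481). Hairpins mir-214 (log2 3.25 ± 0.95, adjusted p = 0.0539) and mir-199b (log2 3.07 ± 0.91, adjusted p = 0.0549) missed the threshold of 0.05. With treatment as a replicate block both passed (edgeR adjusted p = 0.0151 for mir-214 and 0.0217 for mir-199b), as they did with DESeq2 (adjusted p = 0.0184 for each), by column totals (edgeR adjusted p = 0.0201 and 0.0236) and without the low-count filter (0.0180 and 0.0297). In the fit without the block 2 of 4 member hairpins passed, against 8.03% of the 498 hairpins tested. Those 2, mir-199a-1 and mir-199a-2, had nearly the same counts and cannot be taken as 2 independent results. The median log2 fold was 3.33 for the members and 0.38 for all hairpins tested. These calls stand at the threshold: adding the 3 mir-199 hairpins to 1 entry gave an adjusted p of 0.0503, and a fit of all 12 columns gave 0.389 for mir-199a-1 and 0.386 for mir-199a-2. Both calls were lost without control liver (edgeR adjusted p = 0.139 for mir-199a-1 and 0.131 for mir-199a-2), without acetaminophen plus G-CSF liver (0.264 and 0.258) and without acetaminophen plus G-CSF hepatocytes (0.105 and 0.0951), and that of mir-199a-1 also without acetaminophen liver (0.0528). Without control hepatocytes, mir-214 (edgeR adjusted p = 0.00999) and mir-199b (0.0174) passed.

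Of the mature members, miR-214-3p passed the same test (edgeR adjusted p = 0.0187), against 8.33% of the 180 mature miRNAs tested. Since it had no count in hepatocytes, its fold is given as a bound from pooled column totals, without the scaling factors of the edgeR fit. Over the 3 columns of each material the share of miR-214-3p was at least 24.7-fold higher in liver. The floor was 3 counts over the hepatocyte columns together. The summed 3p arms of miR-199 were at least 12.6-fold higher by the same floor and totals. The edgeR adjusted p of each copy, however, was 0.0591, and 0.0398 without acetaminophen liver. Of the 36521 hepatocyte counts pooled for both bounds, 26741 came from the control column, so the bounds rest mainly on control hepatocytes. In acetaminophen hepatocytes alone 3 counts were 0.0563%, against 0.127% for miR-214-3p in acetaminophen liver. The hairpin mir-214 was 9.53-fold higher in liver by edgeR. The 5p arm miR-199a-5p had an adjusted p of 0.587. The call of miR-214-3p was lost without the acetaminophen hepatocyte column (edgeR adjusted p = 0.0613), without the acetaminophen plus G-CSF hepatocyte column (0.122) and in the fit of all 12 columns (0.122). An exact permutation test of the mean log2 share, two-sided, gave p = 0.1 for hairpin mir-214, for the mir-199 hairpins and for the summed members of either table, which is the smallest value that 3 against 3 columns allow, and p = 0.3 for the 5p arms of miR-199. In these bulk samples, fewer cells of a type and less RNA per cell cannot be told apart.

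Other miRNAs known from mesenchymal cells were compared in the same fit. Of 11 such hairpins, 3 were higher in liver by edgeR and 0 lower, with a median log2 fold of 2.38. Those 3 were mir-143 (85.5-fold, adjusted p = 0.00423) and mir-145a (49.5-fold, adjusted p = 0.00494), which are made from a common transcript and are abundant in smooth muscle and stellate cells, and mir-127 (27.0-fold, adjusted p = 0.0481) from an imprinted cluster. Hairpins mir-99a (log2 0.91) and mir-100 (log2 0.88) differed least and did not pass. Among hairpins described as raised when stellate cells activate (mir-21a, mir-221, mir-222, mir-27a, mir-27b and mir-34a), 0 of 6 passed in either direction, 1 had an unadjusted p under 0.05, and their median log2 fold was 0.30. Of 14 hairpins described as lowered in or restraining activation, 1 passed, mir-150, which was higher in liver and is also a lymphocyte miRNA, and the median was -0.05.

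Hairpins of blood and epithelial cells differed between the materials as well. In liver, 2 of 2 erythroid, 3 of 4 leukocyte and 4 of 6 biliary and epithelial hairpins were higher by the same edgeR test. Their median log2 folds were 7.86, 4.20 and 3.98. Of all 498 hairpins tested, 31 were higher in liver. Hairpins mir-141 and mir-200a, both of the biliary and epithelial list, had nearly the same mean levels in each material and may share reads. Hairpin mir-142, left out of the leukocyte list because its name did not match, was also higher in liver (log2 3.91, edgeR adjusted p = 0.0306). The remaining listed leukocyte hairpin, mir-155, had a log2 fold of -3.59 (edgeR adjusted p = 0.0549). Mature miR-155-5p was lower in liver (log2 -5.53, edgeR adjusted p = 0.0187). The endothelial hairpin mir-126a had a log2 fold of 1.08 (edgeR adjusted p = 0.393), and 0 of 7 hepatocyte hairpins passed (median -0.52). The part of these cell types in the counts of miR-199 and miR-214 was not tested.

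**Figure D3:**
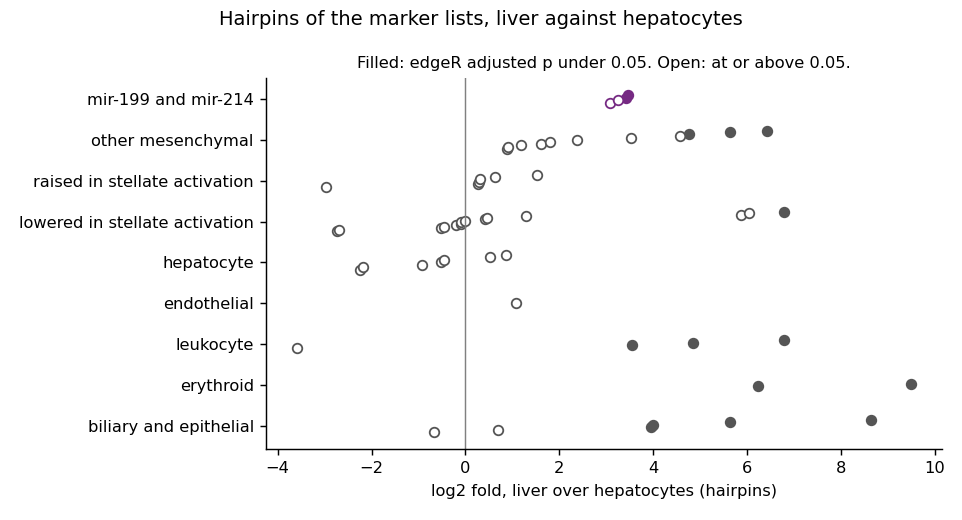
Log2 fold of liver over hepatocytes for each hairpin of the marker lists (edgeR, 3 columns per material); filled points passed an adjusted p of 0.05 and open points did not. The 4 member hairpins lie between 3.07 and 3.46. That is within the range of the other mesenchymal hairpins. It is also within the ranges of the leukocyte, the biliary and epithelial, and the lowered or restraining hairpins.

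Acetaminophen liver had less mir-214 but not less mir-199. Within a material a miRNA was called different between 2 columns at 10 or more counts in 1 of them, a ratio of scaled counts of at least 2-fold, and an interval without 1. Hairpin mir-214 was 2.53-fold lower in acetaminophen liver than in control liver (ratio 0.396, interval 0.345 to 0.452) and was called. The summed mir-199 hairpins had a ratio of 1.00 (0.879 to 1.14), and none of the 3 was called. In this comparison 36.1% of 432 hairpins were called, so 1 of 4 members is no more than the background.

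In the mature table miR-214-3p had a ratio of 0.588 (0.366 to 0.911) between the same columns. The interval lay below 1, but the change was under 2-fold and was not called. The summed 3p arms of miR-199 were 3.52-fold higher (2.26 to 5.50) and were called, as was each copy. The 5p arms of miR-199 had a ratio of 1.12 (0.480 to 2.41). Thus 2 of 4 mature members, which are 1 sequence, were called against 50.0% of the 160 mature miRNAs measured.

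The 2 miRNAs were also set against each other within a column, which needs no scaling between columns. In control liver mir-214 had 2.33 hairpin counts for each mir-199 count (2.22 to 2.44), in acetaminophen liver 0.918 (0.764 to 1.10) and with G-CSF 2.01 (1.90 to 2.13). The mature forms gave 1.86 (1.36 to 2.56), 0.424 (0.254 to 0.687) and 1.42 (1.01 to 2.01) in the same order, with all arms of miR-199 added. Acetaminophen liver was the lowest of the 3 in both tables, and its intervals did not overlap those of the other liver columns. Its ratio was 0.394 of the control ratio by hairpins (0.328 to 0.474) and 0.228 by mature counts (0.131 to 0.398). Between acetaminophen plus G-CSF and control the ratio with G-CSF was 0.865 of the control ratio by hairpins (0.804 to 0.930) and 0.762 by mature counts (0.486 to 1.19).

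**Figure D4:**
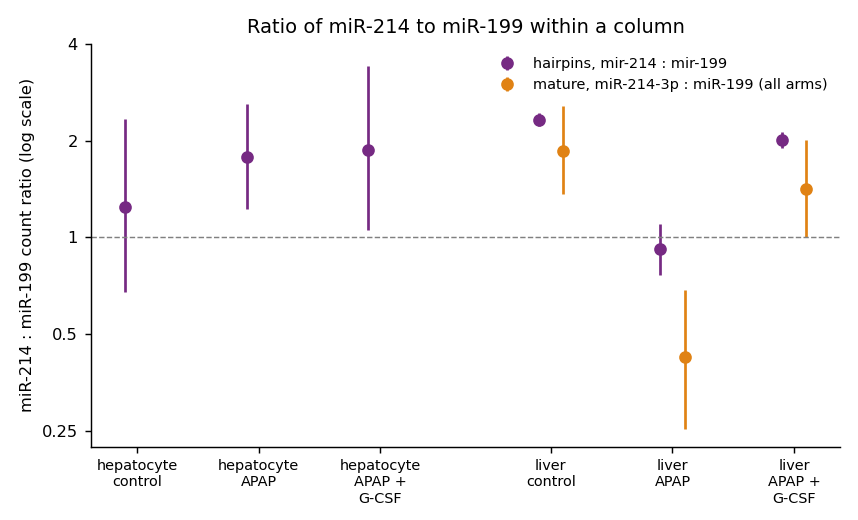
Counts of miR-214 per count of miR-199 (log scale) in the hepatocyte and liver columns, from hairpins and, for liver, from mature forms; bars are 95% intervals of counting error. Acetaminophen liver falls to 0.918 by hairpins and 0.424 by mature counts, below the other 2 liver columns in both tables.

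The arms of miR-199 also differed between liver columns. There were 1.56 3p counts for each 5p count in control liver (0.921 to 2.69), 4.90 in acetaminophen liver (2.45 to 10.9) and 0.936 with G-CSF (0.544 to 1.61). The change from control to acetaminophen liver was 3.14-fold (1.35 to 7.32), on 49 and 10 counts in the acetaminophen column. That column also had the fewest hairpin counts per mature count, for miR-199 (4.23 against 39.7 in control and 30.7 with G-CSF) and for miR-214 (8.81 against 48.8 and 42.6), as it had over all miRNAs. Whether this difference between the tables bears on the arm counts was not tested.

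The third liver column combined acetaminophen with G-CSF. Against acetaminophen alone, hairpin mir-214 had a ratio of 1.76 (1.54 to 2.02) and the mir-199 hairpins one of 0.802 (0.702 to 0.919), and 0 of 4 member hairpins were called against 32.2% of 379. The 3p arms of miR-199 were 4.63-fold lower (2.87 to 7.60) and were called, miR-214-3p had a ratio of 1.24 (0.787 to 2.02), and 30.2% of 162 mature miRNAs were called. Against control, mir-214 had a ratio of 0.696 (0.668 to 0.726), the mir-199 hairpins 0.805 (0.758 to 0.855), miR-214-3p 0.730 (0.546 to 0.972) and the miR-199 3p arms 0.760 (0.453 to 1.26). None of the members was called in that comparison, where 40.4% of 458 hairpins and 28.7% of 171 mature miRNAs were. The comparisons share columns and are not independent of each other.

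**Figure D5:**
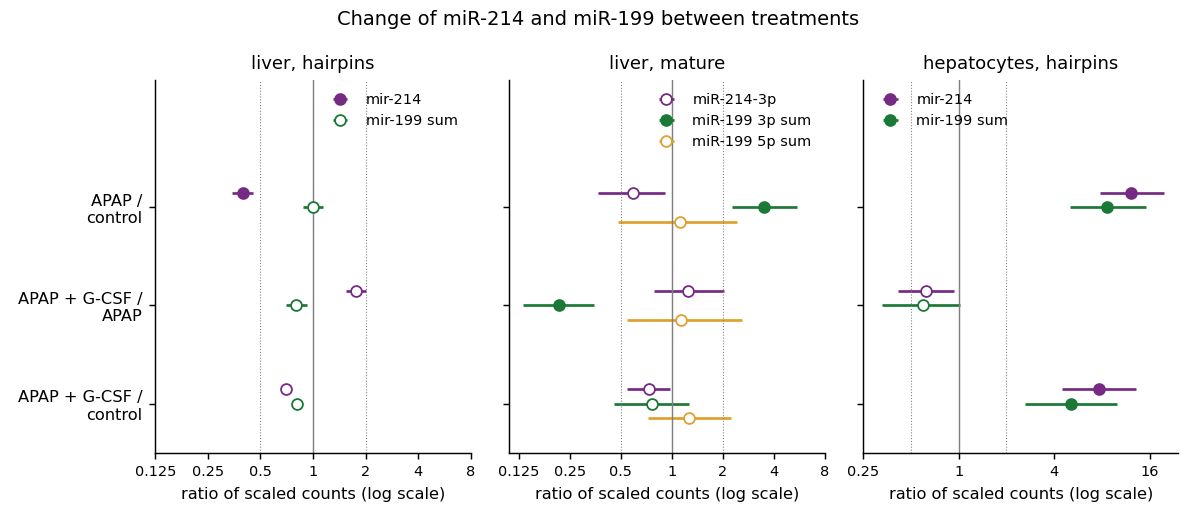
Ratios of scaled counts (log scale) between treatments for miR-214 and the summed miR-199 in liver hairpins, liver mature forms and hepatocyte hairpins; bars are exact 95% intervals of counting error, filled points were called, and dotted lines mark 2-fold. Hairpin mir-214 is lower in acetaminophen liver (0.396) and higher in acetaminophen hepatocytes (12.2), each against its own control.

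Other lists in acetaminophen liver moved in both directions against control. Of 11 other mesenchymal hairpins 1 was called higher and 2 lower, with a median log2 ratio of -0.56 against 0.16 over all hairpins measured. In the pair mir-143 and mir-145a, mir-143 was called 2.40-fold higher and mir-145a 2.22-fold lower, and in the mature table miR-143-3p was called 5.46-fold higher and miR-145a-5p 2.29-fold lower. Of the 6 hairpins described as raised in activation, mir-21a was called higher (3.15-fold) and mir-34a lower (3.27-fold). Of 12 measured hairpins described as lowered or restraining, mir-29b-1 and mir-29b-2 were called higher (4.36- and 4.34-fold). Both are hairpins of a miRNA that targets collagen messages. Called lower were mir-194-1 and mir-194-2 (2.84- and 2.92-fold), which are also on the hepatocyte list.

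Blood cell miRNAs moved beside these results. The 4 erythroid miRNAs took 0.195% of mature counts in control liver, 6.37% in acetaminophen liver and 1.11% with G-CSF. After acetaminophen 4 of 4 were called higher, against 22.5% of the 160 mature miRNAs measured. Of these 4, miR-144-3p and miR-144-5p are arms of a single hairpin. The 6 leukocyte miRNAs took 0.918%, 0.820% and 0.844%. Within that list miR-142a-3p was called 9.89-fold higher and miR-223-3p 4.88-fold higher in acetaminophen liver, and miR-342-3p 3.63-fold lower. Their part in the counts of miR-199 and miR-214 was not tested.

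In cultured hepatocytes the treated columns held more of the members than control. Hairpin mir-214 was 12.2-fold higher with acetaminophen (7.77 to 19.8) and the mir-199 hairpins together 8.58-fold (5.02 to 15.1). All 4 member hairpins were called higher. Of 302 hairpins, 30.5% were called higher and 31.8% lower (62.3% in either direction), with a median log2 ratio of -0.25. The 3 mir-199 hairpins had nearly the same counts and cannot be taken as 3 independent results. The counts were small, 83 of mir-214 in the acetaminophen column against 26 in a control column with more than 4 times its total, and the level reached was below that of any liver column. With 20 counts required in place of 10, mir-214 was still called and the 3 single mir-199 hairpins were not. The ratio of mir-214 to mir-199 in hepatocytes was 1.25 in control (0.674 to 2.34), 1.77 with acetaminophen (1.23 to 2.60) and 1.87 with G-CSF added (1.06 to 3.42), with overlapping intervals.

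Acetaminophen plus G-CSF hepatocytes gave intermediate values. Against acetaminophen alone mir-214 had a ratio of 0.626 (0.413 to 0.933) and 0 of 4 members were called, with 22.2% of 230 hairpins called. Against control mir-214 was 7.64-fold higher (4.51 to 13.2) and called, the only member with 10 counts in either column, with 60.0% of 290 hairpins called. The summed mir-199 hairpins were 5.09-fold higher (2.61 to 9.90).

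The lists of other cell types moved in both directions in hepatocytes. With acetaminophen the 4 listed leukocyte hairpins went from 0.0636% to 0.957% of the column. These counts were mostly of mir-155, which was called 20.5-fold higher and is also induced by inflammatory signals. The endothelial hairpin mir-126a went from 0.261% to 0.981% and was called 3.09-fold higher. Of 7 measured other mesenchymal hairpins, mir-145a (5.51-fold) and mir-10b (5.38-fold) were called higher, while mir-100, mir-99a, mir-125b-1 and mir-125b-2 were called lower by 4.74- to 9.54-fold. Of the 6 hairpins described as raised in stellate activation, 0 were called higher and 3 lower (mir-21a, mir-222 and mir-34a), with a median log2 ratio of -1.52, and the list went from 15.4% to 1.22% of the column. Of 11 measured hairpins described as lowered or restraining, 1 was called higher and 3 lower (median -0.65). The biliary and epithelial hairpins went from 2.08% to 0.188%, with mir-31 called lower and mir-200c higher. The 7 hepatocyte hairpins went from 14.3% to 22.0%, and 0 were called. The 2 erythroid hairpins stayed at or below 0.00529%. The part of other cell types in the hepatocyte result was not tested.

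Exosomes gave few counts. In control serum exosomes mir-214 had 115 hairpin counts (0.0634%, interval 0.0524% to 0.0762%), the mir-199 hairpins 65.3 (0.0360%), and miR-214-3p 3 mature counts. The ratio of mir-214 to mir-199 there was 1.76 (1.29 to 2.43). In the 2 treated serum columns the titles and the treatment field of the labels name opposite treatments, and the treatment field was followed. The column taken as acetaminophen had 0 counts of every member in a hairpin total of 460.3, which allows a share of up to 0.798% by the exact interval. The column taken as acetaminophen plus G-CSF had 5.4 counts of mir-214 in 4026 (0.134%, interval 0.0460% to 0.304%). Against control this was a ratio of 2.11 (0.710 to 4.93) by column totals, but a log2 ratio of -6.08 with DESeq2 size factors, so no direction is given.

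In hepatocyte exosomes the hairpin mir-214 had 2, 1 and 0 counts in the control, acetaminophen and acetaminophen plus G-CSF columns, and mir-199 had 1, 0 and 0. A count of 0 in the G-CSF column allowed a share of up to 2.11% by the exact interval, above every share measured in liver. The 2 counts in control hepatocyte exosomes were 0.220% of that column (0.0266% to 0.791%), an interval that holds all 3 liver shares and lies above the control hepatocyte share, but it rests on those 2 counts. A difference between treatments was not detectable at this depth.

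Across the 6 liver and hepatocyte columns, the mature miRNAs most like the summed members were found by the Pearson correlation of log2(CPM + 1), CPM being counts scaled to a common column total, as a description of columns that share material, depth and treatment. They were miR-143-3p (r = 0.992), miR-6402 (0.967), miR-126a-3p (0.966), miR-145b (0.953) and miR-145a-5p (0.953), of 174 compared. By hairpins they were mir-146b (0.992), mir-146a (0.991), mir-187 (0.989), mir-338 (0.981) and let-7k (0.981), of 237 compared. With 10 added to the CPM in place of 1, 4 of the 5 stayed in each table. There miR-181a-5p replaced miR-126a-3p, and mir-126a replaced mir-338. The summed mature members had 0 counts in control and acetaminophen plus G-CSF hepatocytes, where the added value sets the level. The pairs miR-145a and miR-145b, and mir-146a and mir-146b, have near-identical names and counts and may share reads.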

How the data were processed

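Small RNA was taken from the 4 materials with a Norgen kit, and libraries were made with Ion Total RNA-Seq Kit v2 reagents (labels' protocols). The authors deposited estimated counts (expected counts) for each mature miRNA or hairpin in 1 column per condition, per the file headers; how reads that match several entries were shared out is not stated. Of 34 member values above 0 in the hairpin table, 12 were whole within 0.001. The aligner and the build were not given in the sources used here.

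Columns of a material were scaled with TMM factors (edgeR 4.0.16), exosomes by column totals. Ratios and shares carry exact Clopper-Pearson intervals, computed on the estimated counts; intervals of a change in ratio are normal approximations on the log scale, and the SE of a log2 fold is its size divided by the root of the F statistic. A 0 was given a floor of 3 counts. Liver and hepatocytes were compared with edgeR's quasi-likelihood test after rounding the counts, which was tested on simulated data, with DESeq2 1.42.0 as the alternative. The 3 treatments stood as samples, so p-values measure the spread between these 6 columns. The miRNAs named beside the members are those of the marker lists, those called in them, and the 5 of each table with the highest correlation. The members, lists and tests were chosen with earlier results of these data known. The ratio by 3p arms alone was added after seeing the data.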

Additional observations from a re-analysis of the deposited data

Results flagged for a closer look

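Hairpin mir-214 moved in opposite directions with acetaminophen in the 2 materials. The ratio of acetaminophen to control was 12.2 in hepatocytes (7.77 to 19.8) and 0.396 in liver (0.345 to 0.452), on 83 and 26 counts and on 229 and 5909 counts. Each material had 1 column per treatment, so the difference between the materials was not tested, and the doses were not matched.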

How the results depend on the processing

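Liver against hepatocytes depended most on the processing. The 40 hairpin calls (31 higher in liver, 9 lower) became 92 with DESeq2 (49 and 43), 71 by column totals (60 and 11), 64 without the low-count filter (39 and 25), 26 with entries that share reads added together (23 and 3), 56 with treatment as a replicate block (37 and 19), and 6 to 150 leaving out 1 column, the lowest without acetaminophen plus G-CSF liver and the highest without control hepatocytes. The 15 mature calls (10 and 5) became 39 with DESeq2 (18 and 21), 25 by totals (22 and 3), 10 with the block and 0 to 29 leaving out 1 column, the 0 without acetaminophen plus G-CSF hepatocytes (44 at an unadjusted p under 0.05). The edgeR fit of all 12 columns made 0 calls in either table, with 67 hairpins and 35 mature miRNAs at an unadjusted p under 0.05. The replicate block moved mir-214 (edgeR adjusted p = 0.0151) and mir-199b (0.0217) past the threshold, as DESeq2 did (0.0184 for each). Of 370 values of single members, 302 kept their call and size, 25 lost the call, 20 gained it, 23 moved and 0 reversed a call. Within materials, the log2 ratio of mir-214 ranged from -1.40 to -1.14 in liver and from 2.64 to 3.90 in hepatocytes for acetaminophen against control. Without the low-count filter, miR-214-3p passed 2-fold in acetaminophen liver, 75 hairpins were called higher and 159 lower in acetaminophen hepatocytes against control (92 and 96 with it), 58 and 152 with G-CSF added (79 and 95), and 25 mature miRNAs higher and 54 lower in acetaminophen liver (36 and 44; 42 and 34 with miR-122 left out before scaling). For G-CSF added against acetaminophen, the mature liver calls of 28 higher and 21 lower became 44 and 15 by totals, 39 and 19 without the filter, 24 and 27 by DESeq2 size factors and 23 and 31 without miR-122, and the hepatocyte hairpin calls of 18 and 33 became 27 and 32 by DESeq2 size factors; against control liver, 27 and 22 mature calls became 29 and 15 by totals. The log2 change of the miR-214 to miR-199 ratio was -2.13 by mature counts, -1.34 by hairpins and -2.58 by 3p arms for acetaminophen liver against control. For acetaminophen plus G-CSF against control it was -0.39 by mature counts, -0.21 by hairpins and -0.06 by 3p arms. Of these, only the hairpin interval excluded no change. Exchanging the 2 treated serum columns gave no value, since the count was 0. Depth limits the mature counts in hepatocytes and every exosome value.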
